A study of Mus musculus with 4 samples.

Results

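The collapsin response mediator proteins and 4 further proteins of growing neurons were followed in limb and brain of mouse embryos with and without the repressor Rest. The set holds Crmp1, Dpysl2, Dpysl3, Dpysl4, Dpysl5, Dcx, Map2, Mapt and Gap43, which makes 9 of the 27629 genes or unnamed transcripts on the array and 19 of its 41174 probes. Members were found by the gene name printed for each probe. That name alone gave 8 genes and 14 probes. Map2 stands on the array under its older name Mtap2, with 5 probes, and was added through the RefSeq synonym. All 9 members could be compared in both tissues. Of the 19 probes, 15 were well above background on all 4 arrays and 1, for Map2, was above it on none.

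The study had 4 samples, each hybridised to 1 single-colour Agilent array: wild type limb (WT limb), Rest conditional knockout limb (CKO limb), wild type brain (WT brain) and Rest conditional knockout brain (CKO brain). All were taken at embryonic day E13.5 from mice of mixed 129 and C57BL/6 background. Per the labels, the mice carried floxed Rest, and doxycycline given from E8.5 to E13.5 switched on an inducible Cre recombinase in the womb. The same doxycycline treatment and the same floxed mice are recorded for the WT samples. The promoter that drives Cre, the part of Rest that is floxed, and whether a sample pooled several embryos are not given in the sources used here. With 1 array per group there is no replicate check of CKO against WT within a tissue, and no such difference was tested.

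REST is a zinc-finger protein that binds a specific DNA element and keeps many neuronal genes silent outside the nervous system. The collapsin response mediator proteins are cytosolic relatives of the pyrimidine-degrading enzyme dihydropyrimidinase. They bind tubulin and carry signals of the repellent semaphorins to the cytoskeleton of growing axons. Doublecortin (Dcx), Map2 and tau (Mapt) bind and stabilise microtubules in migrating neurons, dendrites and axons, and Gap43 is a membrane-bound protein of the growth cone, the motile tip of an axon.

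The 75th percentile of signal, to which each array was scaled, lay between 777 and 1001 intensity units, and 62.7% to 70.7% of spots were well above background. A value of 0 below is that percentile, and all levels and differences are log2 values on this scale unless a fold is named. Rest was lower in CKO at each of its 3 probes, by 4.01-fold to 17.1-fold in limb and by 1.88-fold to 11.9-fold in brain, where the third probe was not above background in CKO and at least 6.60-fold lower. A probe outside the deleted part checks nothing about the deletion. The tissue labels were checked on marker lists: between the WT arrays, all 16 neuron markers were at least 2-fold higher in brain, and 11 of 11 muscle markers compared were at least 2-fold lower there. In bulk tissue, fewer cells of a type and less RNA per cell cannot be told apart.

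The sequence just upstream of the transcription start was held in the RefSeq promoter table (GRCm38.p6) for 4 members, Crmp1, Dpysl5, Dcx and Map2. They are shown because no such entry was held for the other members. Crmp1, Dcx and Dpysl5 differed most between the limb arrays together with Dpysl4, while Map2 differed less. Each window holds the 250 bases before the start in the direction of transcription, and for Crmp1 and Dcx the first of the windows in the table is given. The Crmp1 window is chr5:37241808-37242057 on the plus strand, that of Dpysl5 chr5:30711314-30711563 on the plus strand, that of Dcx chrX:143933220-143933469 on the minus strand, and that of Map2 chr1:66175079-66175328 on the plus strand.
Crmp1: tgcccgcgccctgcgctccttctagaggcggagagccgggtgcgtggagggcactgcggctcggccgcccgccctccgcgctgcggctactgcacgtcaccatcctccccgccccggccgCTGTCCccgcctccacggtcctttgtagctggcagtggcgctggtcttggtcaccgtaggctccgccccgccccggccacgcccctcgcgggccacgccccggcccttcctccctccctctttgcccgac
Dpysl5: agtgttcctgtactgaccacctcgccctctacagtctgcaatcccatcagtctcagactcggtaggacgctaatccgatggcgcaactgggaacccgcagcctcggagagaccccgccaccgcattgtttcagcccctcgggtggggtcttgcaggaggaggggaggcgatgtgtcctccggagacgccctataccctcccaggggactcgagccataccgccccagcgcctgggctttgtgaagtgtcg
Dcx: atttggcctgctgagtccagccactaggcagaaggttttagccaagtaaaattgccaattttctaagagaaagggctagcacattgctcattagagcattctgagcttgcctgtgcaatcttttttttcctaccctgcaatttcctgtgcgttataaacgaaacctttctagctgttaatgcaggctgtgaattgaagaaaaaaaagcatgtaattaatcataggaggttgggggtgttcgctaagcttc
Map2: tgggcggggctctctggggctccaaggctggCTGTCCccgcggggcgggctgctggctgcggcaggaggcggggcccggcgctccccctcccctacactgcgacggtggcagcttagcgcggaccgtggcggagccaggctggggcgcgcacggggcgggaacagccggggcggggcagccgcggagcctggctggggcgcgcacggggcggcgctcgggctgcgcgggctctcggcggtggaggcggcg
Capitals mark CTGTCC, which is GGACAG read on the other strand. The letters AGCACC and GGACAG, the 6-base cores of the left and right arms of the REST element, were searched on both strands, alone and joined over 2 free bases. GGACAG was found in the Crmp1 window, starting 130 bases before the transcription start, and in the Map2 window, starting 219 bases before it. AGCACC and the joined form were in none of these windows. The second windows of Crmp1 and Dcx, not printed here, held neither AGCACC nor GGACAG. Over all 32851 windows of this length, 13.4% held AGCACC, 18.7% held GGACAG and 15 windows, or 0.0457%, held the joined form. A match is a description of the letters, and the lack of one says only that these letters are not in this window. The printed windows differed in base composition. Those of Crmp1 and Map2 held 30 and 34 CG dinucleotides, that of Dpysl5 held 17 and that of Dcx 3, beside a median of 6 over all windows. The second windows of Crmp1 and Dcx held 16 and 3.

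In limb, all 9 members had a higher signal in CKO than in WT at their brightest probe, but the size ran from 9.61-fold for Crmp1 to 1.04-fold for Mapt. At the 2-fold mark Crmp1 and Dcx were counted as higher and none as lower, beside 2.51% of 18449 genes that passed this mark upward and 2.15% that passed it downward. Dcx at 2.004-fold and Dpysl4 at 1.995-fold lay on the mark itself, so the count of 2 turns on a rounding. The scaling was settled after both results had been seen: with the percentile taken over every non-control spot, the outlier-flagged ones included, the count was 1, Crmp1 alone. Under quantile normalization and under median centring it was 3, with Dpysl4 at 1.02 and 1.01. At 1.5-fold, Crmp1, Dcx, Dpysl4 and Dpysl5 were counted, 4 of 9, beside 4.81% of all genes. The median of the members was 0.45 and that of all genes -0.02.

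**Figure D1:**
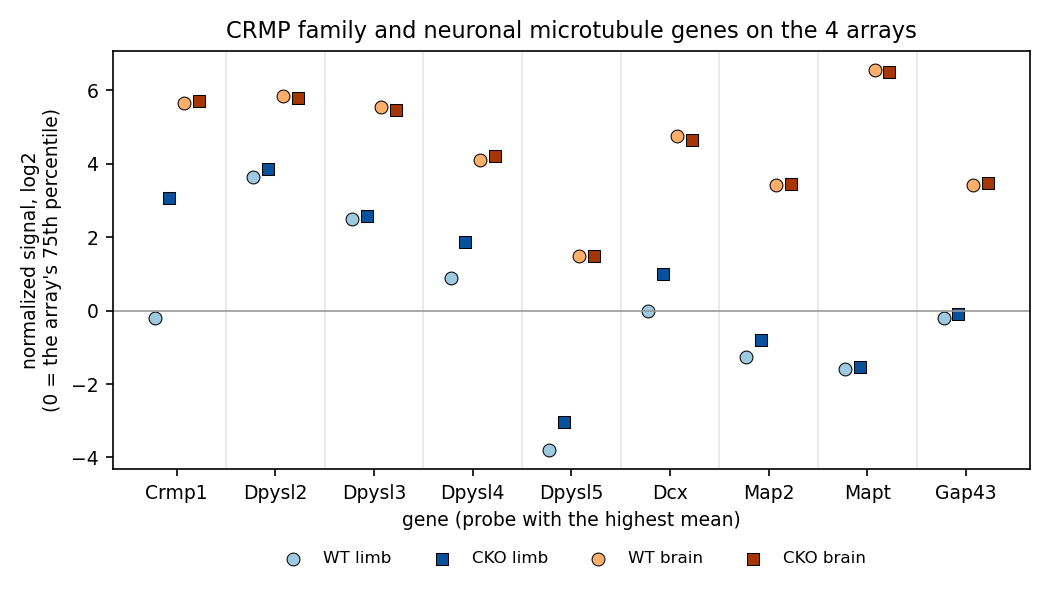
Normalized log2 signal (vertical axis, 0 is each array's 75th percentile) of the brightest probe of each of the 9 genes on the 4 arrays, 1 point per array. Both brain points of a gene lie close together and above both of its limb points; the limb points are far apart for Crmp1 (-0.20 and 3.06) and nearly coincide for Mapt (-1.60 and -1.54). Heights of different genes are not comparable, since each probe has its own response.

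Crmp1, which takes part in the response of growing axons to semaphorins, was measured by 1 probe on chromosome 5 (mm9, chr5:37683242-37683301). Its background-subtracted intensity was 675 ± 67.8 in WT and 7723 ± 772 in CKO limb, and 45283 ± 4528 in WT and 51902 ± 5190 in CKO brain, where the error is the scanner software's own estimate for the spot. After scaling the levels were -0.20, 3.06, 5.65 and 5.70. CKO limb thus lay between WT limb and the brain arrays, and both brain arrays were nearly equal. The limb difference was 3.27, or 9.61-fold, and ranked 82 of 18449 genes. The technical SD of such a difference, from probes printed 10 times on each array, was 0.0658 for bright probes, and the error propagated from the software was 0.204. Both errors describe the spots and cover neither labelling nor differences between embryos. Relative to WT brain, the Crmp1 signal was 1.73% in WT limb and 16.6% in CKO limb.

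Dpysl4, another cytosolic member of the family, had 1 probe (mm9, chr7:146287534-146287593). Its intensity was 1427 ± 143 in WT and 3390 ± 339 in CKO limb, and 15593 ± 1559 in WT and 18603 ± 1860 in CKO brain. The scaled levels were 0.88, 1.87, 4.11 and 4.22, in the same order of arrays as for Crmp1. The limb difference was 0.996, or 1.995-fold, and the signal went from 10.6% of the WT brain level in WT limb to 21.2% in CKO limb.

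Dpysl5, which is known for its interaction with other members of the family and for its expression in the developing nervous system, had 2 probes. At the brighter one (mm9, chr5:31100630-31100689) the levels were -3.80 in WT and -3.03 in CKO limb, and 1.48 in WT and 1.5 in CKO brain. The limb signal was low on both arrays, with intensities of 55.8 ± 8.70 and 113 ± 12.1. The difference of 0.77, or 1.70-fold, had a technical SD of 0.176, the value for dim probes, and a software error of 0.273. At the other probe WT limb was not well above background, and CKO limb was at least 1.25-fold higher. This bound sets the CKO signal against the lowest signal called above background on the WT array, or the probe's own WT signal where that is higher. The limb level of Dpysl5 was 2.57% of WT brain in WT and 4.37% in CKO.

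Dpysl2, the most studied member, which promotes the assembly of tubulin in axons, and Dpysl3, which is linked to actin as well as to tubulin in growth cones, were well above background in WT limb. At the brighter Dpysl2 probe (mm9, chr14:67421727-67421786) the levels were 3.64 in WT and 3.85 in CKO limb, and 5.85 in WT and 5.79 in CKO brain. The limb arrays were close to each other, with a difference of 0.21, or 1.16-fold, at this probe and of 0.17 at the second. Dpysl3 had 1 probe, on chromosome 18, whose 60 bases are spread over 2497 bases of the genome in mm9, and its levels were 2.49 in WT and 2.57 in CKO limb, and 5.54 in WT and 5.47 in CKO brain. Its limb difference of 0.07, or 1.05-fold, was about as large as its technical SD of 0.0658. Relative to WT brain, WT limb held 21.6% of the Dpysl2 signal and 12.1% of the Dpysl3 signal, and CKO limb 25% and 12.8%.

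Dcx, the microtubule protein of migrating neurons, had 3 probes on chromosome X. At the brightest (mm9, chrX:140290854-140290913) the intensity was 773 ± 77.5 in WT and 1845 ± 185 in CKO limb, and 24319 ± 2432 in WT and 25357 ± 2536 in CKO brain. The scaled levels were -0.01, 1.0, 4.76 and 4.66, so CKO limb again lay above WT limb and far below both brain arrays. The limb difference was 1.003, or 2.004-fold, at this probe and 0.93, or 1.90-fold, at the second. At the third, WT limb was not well above background and CKO limb was at least 1.48-fold higher. All 3 probes thus had the higher signal in CKO limb. Dcx stood at 3.68% of its WT brain signal in WT limb and at 7.38% in CKO limb.

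Map2, the dendritic microtubule protein, had 5 probes along chromosome 1. At the brightest (mm9, chr1:66488783-66488842) the levels were -1.26 in WT and -0.81 in CKO limb, and 3.43 in WT and 3.46 in CKO brain. The limb difference was 0.45, or 1.36-fold, at this probe, and 0.30 and 0.23 at the next, all in the same direction. The remaining 2 probes were not well above background on either limb array and give no limb difference. With the mean of all Map2 probes in place of the brightest, the limb value was -0.14, a mean that takes in both dark probes.

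Mapt, the axonal microtubule protein tau, had 3 probes and the widest gap between tissues of the 9 members. At the brightest (mm9, chr11:104191345-104191404) the intensity was 256 ± 26.4 in WT and 318 ± 32.0 in CKO limb, and 84974 ± 8497 in WT and 90040 ± 9004 in CKO brain. The scaled levels were -1.60, -1.54, 6.56 and 6.49, with the limb arrays nearly equal and far below brain. The limb differences were 0.06, -0.03 and 0.08 at the 3 probes, each smaller than its technical SD of 0.0902 to 0.176. Mapt stayed at 0.349% of its WT brain signal in WT limb and 0.364% in CKO limb.

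Gap43, the growth-cone protein, had 1 probe whose 60 bases are spread over 48166 bases of chromosome 16. Its levels were -0.21 in WT and -0.09 in CKO limb, and 3.43 in WT and 3.47 in CKO brain. The limb arrays differed by 0.11, or 1.08-fold, with a technical SD of 0.0902. The limb signal was 8.02% of WT brain in WT and 8.68% in CKO.

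**Figure D2:**
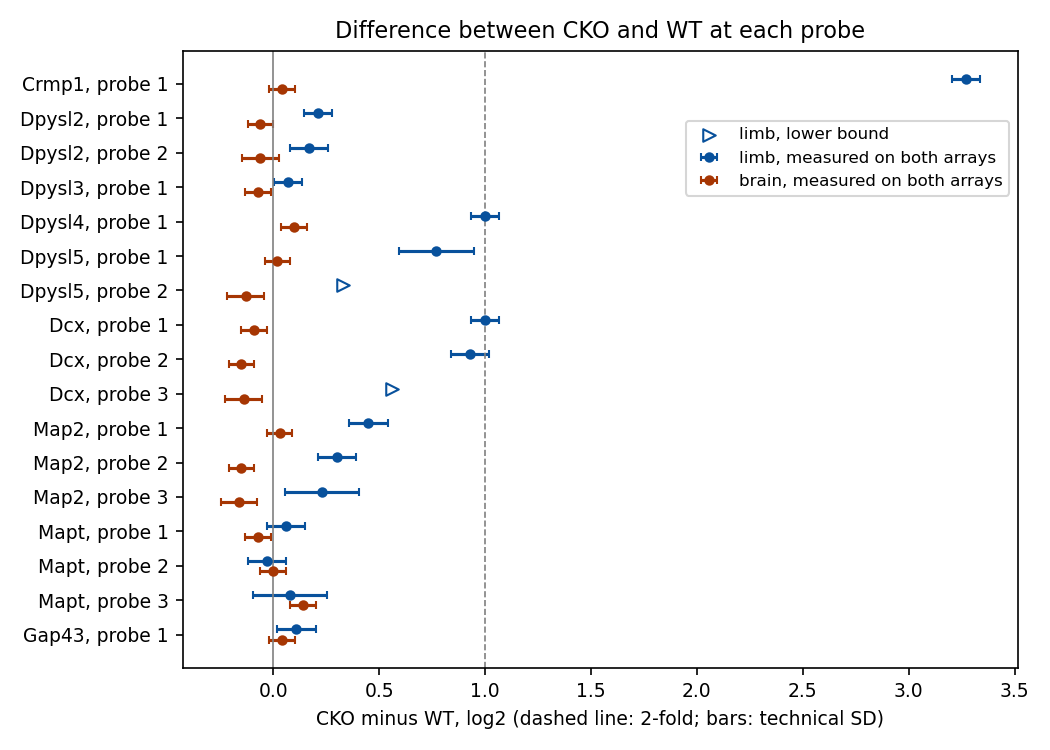
CKO minus WT difference (horizontal axis, log2) at each of the 17 probes with a limb value, in limb (blue) and brain (red); bars are the technical SD of a single-spot difference and open triangles are lower bounds. In limb the Crmp1 probe lies at 3.27, the Dcx and Dpysl4 probes lie near the dashed 2-fold line and the Mapt, Dpysl3 and Gap43 probes near 0, while every brain point lies between -0.16 and 0.14.

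Spot error gave different splits of the members by its 2 measures. The limb difference of the brightest probe was larger than 2 software errors for 5 of 9 members, Crmp1, Dcx, Dpysl4, Dpysl5 and Map2, and not for Dpysl2, Dpysl3, Mapt and Gap43. By the technical SD of spots, 6 of 9 were above 2 SDs, Dpysl2 among them with 0.21 against an SD of 0.0658. These criteria were chosen after the values had been seen. The first splits the collapsin response mediators, with 3 of the family above it, and also the microtubule proteins, with tau the exception among 3. Of the 15 probes measured on all 4 arrays, 14 were above 0 in limb, where the median of all genes was -0.02. Several of these probes belong to the same gene and all were read on the same arrays, so they are not separate observations.

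In brain the members did not separate. No member was at least 2-fold higher or lower in CKO, beside 1.37% of 18944 genes higher and 1.22% lower. The 9 differences ran from -0.09 for Dcx to 0.10 for Dpysl4, with 5 above 0 and 4 below, and none was larger than 2 software errors. Over the 15 probes measured on all 4 arrays the brain differences ran from -0.16 to 0.14, with 6 above 0. The second Dcx probe (-0.15), the second Map2 probe (-0.15) and the third Mapt probe (0.14) were above 2 technical SDs. Crmp1 differed by 0.04 in brain against 3.27 in limb, Dpysl4 by 0.10 against 0.996, and Dpysl5 by 0.02 against 0.77. The differences between the tissues in their response to genotype were not tested, since each rests on 1 array per group. Cartilage markers were higher in CKO brain, 9 of 11 at least 2-fold, and 4 of 15 peripheral ganglion markers were lower there; their part in the brain values was not tested.

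The members were chosen as genes of neurons, and in WT all 9 were at least 2-fold higher in brain than in limb, beside 15.8% of 18433 genes. The differences were 287-fold for Mapt, 57.9-fold for Crmp1, 38.9-fold for Dpysl5, 27.1-fold for Dcx and 25.8-fold for Map2. Gap43 was 12.5-fold higher in WT brain, Dpysl4 9.43-fold, Dpysl3 8.24-fold and Dpysl2 4.64-fold. CKO limb stayed below WT brain for all 9 members, each at least 2-fold lower, beside 16.3% of 19071 genes. The nearest to WT brain was Dpysl2, 4.0-fold lower in CKO limb, followed by Dpysl4 at 4.73-fold and Crmp1 at 6.03-fold, while Mapt was 275-fold lower. On the log2 scale the limb difference of Crmp1 amounted to 55.8% of the distance between WT limb and WT brain. The same share was 30.8% for Dpysl4, 21.1% for Dcx, 14.5% for Dpysl5 and 0.732% for Mapt.

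**Figure D3:**
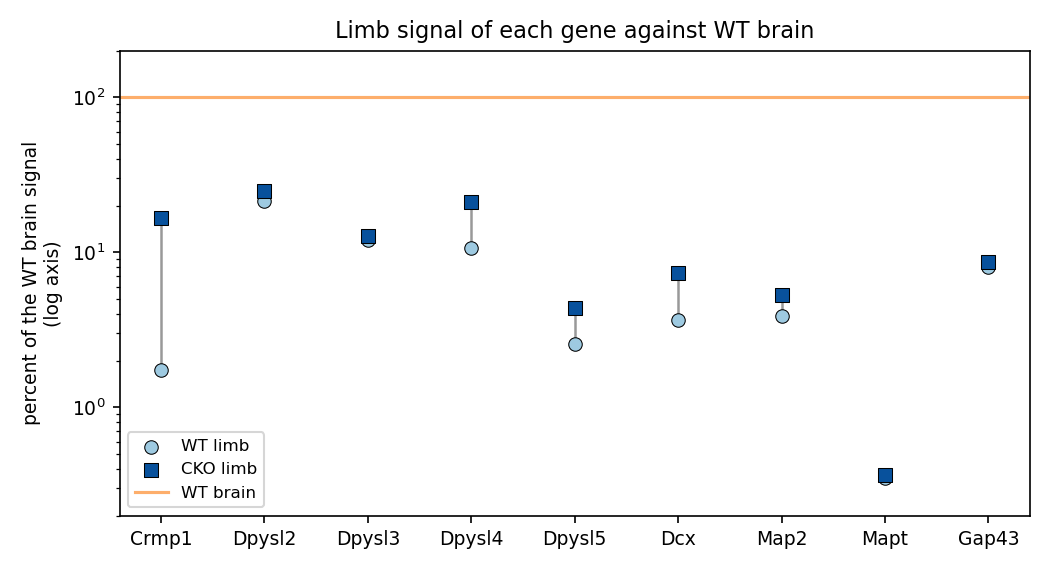
Signal in WT limb (light circles) and CKO limb (dark squares) as a percent of the same probe's signal in WT brain (orange line at 100), on a log axis, for the brightest probe of each gene. Crmp1 moves from 1.73% to 16.6%, Dpysl4 from 10.6% to 21.2% and Dcx from 3.68% to 7.38%, while the Mapt points coincide near 0.35%.

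The more changed members and the others overlapped both in their tissue gap and in their WT limb level. The brain minus limb difference in WT was 3.24 to 5.86 for Crmp1, Dcx, Dpysl4 and Dpysl5, and 2.21 to 8.16 for the other 5 members, so the ranges overlap. The same gap, written as a percent, put WT limb at 1.73% to 10.6% of WT brain for the former and 0.349% to 21.6% for the latter. WT limb levels ran from -3.8 to 0.88 for the former and from -1.6 to 3.64 for the latter, though levels of different probes are not strictly comparable. A link of the gap or the level to the limb difference was not tested. The share of members counted is best read against other genes that are higher in brain. Of the 444 genes measured on both WT arrays and at least 8-fold higher in WT brain, 134, or 30.2%, were at least 2-fold higher in CKO limb. Of the 8 members in that class, 2 were. Among the 900 genes at least 4-fold higher in WT brain the share was 18.9%, and 2 of the 9 members were counted. Among the 2171 genes at least 2-fold higher in WT brain, which include all 9 members, the share was 9.44%. With 2 of 9 members, 1 of them on the 2-fold mark, nothing particular to the set is read from these shares.

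The only test the series allows for genotype takes both tissues together, with tissue as a block, in limma. It called 0.0% of 15630 genes at a Benjamini-Hochberg adjusted p under 0.05, while 977 had an unadjusted p under 0.05. No member was called. Rest, the deleted gene, was not called either, at -1.46 ± 0.349 (SE) with a limma Benjamini-Hochberg adjusted p of 0.667. The lack of a call for a member is therefore not informative. Among the members the largest genotype effect was that of Crmp1, 1.65 ± 1.01 (SE, limma), with a Benjamini-Hochberg adjusted p of 0.667. Dpysl4 followed at 0.55 ± 0.286 and Dcx at 0.46 ± 0.348 (SE). This fit averages the limb and brain differences, which were unlike for Crmp1, and it has 1 residual degree of freedom per gene. The same fit for tissue, with genotype as a block, called 32.1% of genes higher in brain. It called 8 of 9 members, with effects from 2.07 for Dpysl2 to 8.10 for Mapt (limma, Benjamini-Hochberg adjusted p = 0.00577 for Mapt). Crmp1 was higher in brain by 4.25 ± 1.01 (SE) at a limma adjusted p of 0.051, just past the threshold, and was called under median centring at 0.0366, under normexp background correction at 0.027 and with an intensity trend at 0.0323. It was not called in limma under the other settings run, with adjusted p from 0.0501 for the deposited series table to 0.109 without the filter on dim probes.

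The surrounding pathways were described with 5 lists of other genes. Their limb counts stand beside 2.51% of all 18449 genes compared that were at least 2-fold higher in CKO limb and 2.15% that were lower. Semaphorins, their neuropilin and plexin receptors and the kinases that act on the collapsin response mediators showed no member at least 2-fold different in CKO limb, 0 of 34 in either direction, with a median of -0.01. The list includes Cdk5r1, the activator of the kinase Cdk5, whose limb difference was 0.93. Of 42 other microtubule-associated genes compared, none was higher and 1 lower, Map7d2, a microtubule-binding partner of kinesin, which went from -2.07 in WT limb to -4.54 in CKO limb and was 5.55-fold lower. Of 13 tubulins, the neuronal beta tubulin Tubb3 alone was higher, 6.21-fold, from -1.76 in WT limb to 0.87 in CKO limb, with 6.24 in WT brain. Neither of the 2 pyrimidine-degrading relatives compared differed at least 2-fold.

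Growth-cone and axonal adhesion genes had the most differences of these lists, with 4 of 24 higher and none lower in CKO limb. Gprin1, a growth-cone partner of G proteins, went from -3.14 in WT limb to 1.92 in CKO limb and was 33.4-fold higher, with 3.53 in WT brain. Rtn1, a reticulon of neuronal membranes, was 2.45-fold higher. The adhesion molecules Nrcam and L1cam were 2.29-fold and 2.02-fold higher, L1cam close to the mark. Over the 5 lists together, 5 of 115 genes compared were higher and 1 lower in limb, with a median of 0.03, and 0 of 116 differed at least 2-fold in brain. The shares over all genes were 2.51% higher and 2.15% lower in limb, and 1.37% and 1.22% in brain. Nothing particular to the lists is read from these counts.

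**Figure D4:**
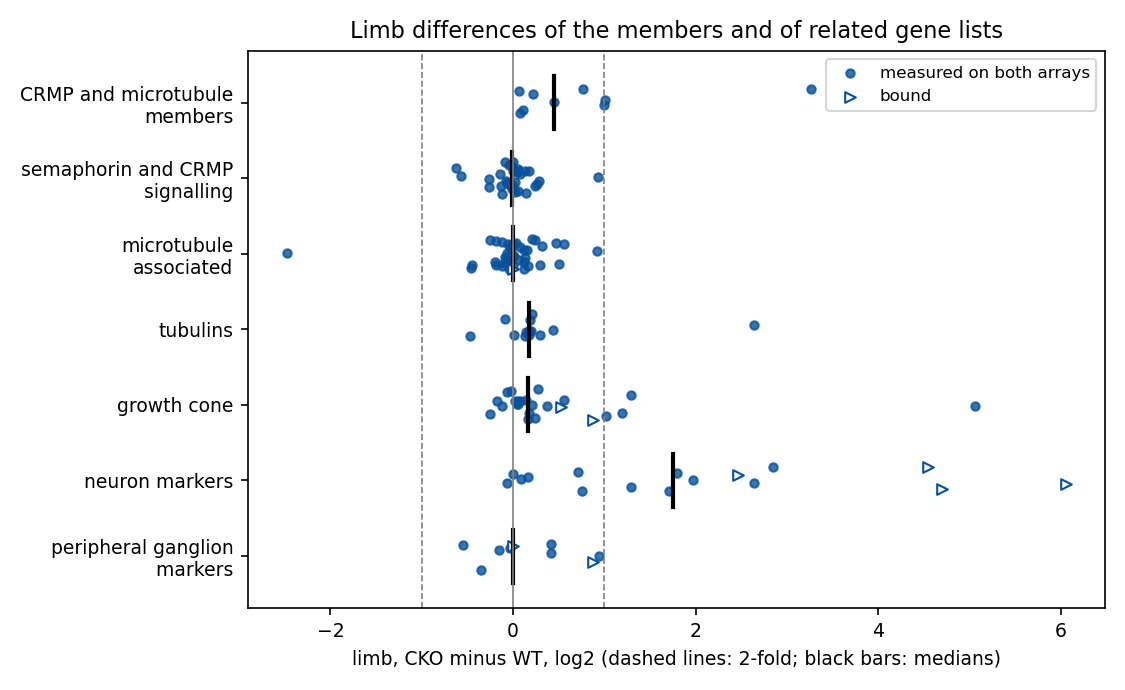
Limb difference (horizontal axis, CKO minus WT, log2) of the 9 members, of 4 pathway lists and of 2 marker lists; filled points were measured on both arrays, triangles are bounds, black bars are medians and dashed lines mark 2-fold in each direction. The medians are 0.45 for the members, -0.01 for semaphorin and collapsin response mediator signalling and 1.75 for neuron markers, and single genes stand apart in the growth-cone list (Gprin1, 5.06), the tubulins (Tubb3, 2.63) and the microtubule-associated list (Map7d2, -2.47).

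More of the neuron markers than of the members passed the 2-fold mark in limb. Of the 16 on the list, 10 were at least 2-fold higher in CKO limb and none lower, with a median of 1.75. Of the 9 members, 2 passed this mark, and their median was 0.45. Over all 18449 genes, 2.51% passed it upward. Among the 444 genes whose WT brain signal exceeded WT limb 8-fold or more, 30.2% did. The summed level (log2) of the neuron markers was 4.69 in WT and 5.18 in CKO limb, beside 9.10 in WT brain. Tubb3 and Rtn1 stand on this list too. Stmn2, a tubulin-binding stathmin, was 7.17-fold higher in CKO limb, the neurofilament gene Nefm 3.91-fold and the intermediate filament gene Ina 3.47-fold. The synaptic membrane protein gene Snap25 and the RNA-binding protein gene Elavl3 were not above background in WT limb and were at least 66.3-fold and at least 25.8-fold higher in CKO limb. Markers of peripheral ganglia, whose axons reach the limb, did not differ at least 2-fold in limb in any of the 9 that could be compared, with a summed level of 0.383 in WT limb and 0.522 in CKO limb. Of the 15 on the array, 6 were not above background in CKO limb, among them Avil, Tlx3 and Th. Of 10 Schwann cell and neural crest markers compared, none differed at least 2-fold in limb. Erythroid markers were lower in CKO limb, 5 of 7 at least 2-fold, with a summed level of 9.98 in WT limb and 8.86 in CKO limb. Muscle markers had a limb median of 0.52, with none of 12 at least 2-fold different, and a summed level of 7.97 in WT limb and 8.41 in CKO limb. The part of any of these in the members' values was not tested.

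The genes whose 4 values ran most like those of the 2 members counted in limb were found by Euclidean distance over the 4 arrays, after centring each gene on its own mean, among 15631 genes well above background on all arrays. Nearest to Crmp1 was Ppm1e, a protein phosphatase, at a distance of 0.17, with levels of -4.0 and -0.94 in WT and CKO limb, and of 1.82 and 1.90 in WT and CKO brain. The cadherin gene Cdh22 followed at 0.37 and an unnamed transcript at 0.39. Nearest to Dcx was Chd5, a chromatin remodeller, at 0.07, with levels of -3.09, -2.05, 1.61 and 1.55 in the same order. Cdk5r1 was next at 0.10 and an unnamed transcript at 0.11. These likenesses rest on 4 arrays.

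**Figure D5:**
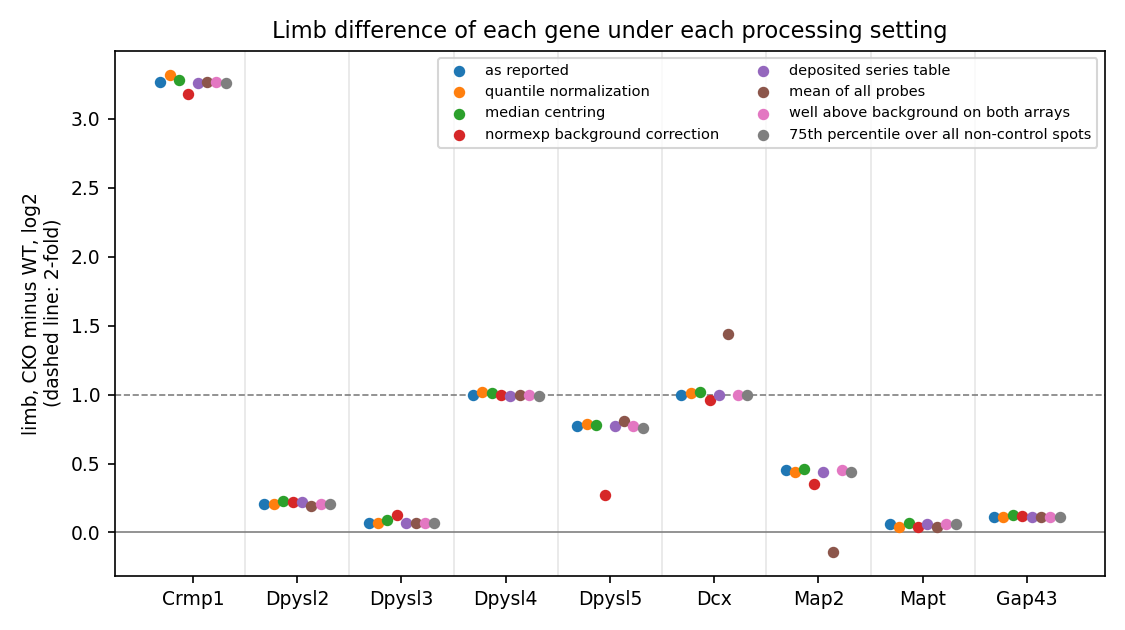
Limb difference (vertical axis, CKO minus WT, log2) of each gene under 8 processing settings, 1 point per setting; the dashed line marks 2-fold. Crmp1 stays between 3.18 and 3.32, Dpysl4 between 0.99 and 1.02 and Mapt between 0.04 and 0.07, while Dcx reaches from 0.96 to 1.44, Dpysl5 from 0.27 to 0.81 and Map2 from -0.14 to 0.46.

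The order of the members by limb difference was not the same under every setting. Crmp1 stayed first under all 8, from 3.18 to 3.32, and Mapt between 0.04 and 0.07. Dpysl4 and Dcx lay on either side of the 2-fold mark, from 0.99 to 1.02 and from 0.96 to 1.44, the highest Dcx value being the mean of its 3 probes, of which 1 was dark in WT limb. Dpysl5, whose limb signals were near background, was at 0.27 under normexp background correction, which adds an offset of 50 to every intensity. Map2 lay between 0.35 and 0.46 under every setting based on its brightest probe.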

How the data were processed

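Total RNA was labelled with Cy3 as cRNA and hybridised to 4 Agilent arrays, 1 per group, per the labels' protocols. The deposited intensity values are Agilent Feature Extraction 9.5.3.1 output, per the submitters' processing notes. Per the file headers they are background-subtracted within each array and not normalized between arrays.

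Control and outlier-flagged spots were left out, log2 was taken of the intensities, and each array's 75th percentile was subtracted. This percentile over unflagged spots replaced one over all non-control spots after both results had been seen, and it decides whether Dcx passes 2-fold. Spots of a probe were averaged, and a gene is represented by its brightest probe on average. A probe not well above background on 1 array gives a bound. The technical SD combines both arrays' spot SDs of probes printed 10 times, of which there are 245. Only those with enough spots well above background on both arrays were used, 182 for the limb difference. It is the median within a class of signal level, in limb from 29 dim, 67 middle and 86 bright probes. The combined form, larger than one from paired spots, was also settled after values had been seen. The software error is the error column of the deposited files.

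Within a tissue, calls rest on size alone, at least 2-fold. limma 3.58.1 (R 4.3.3) tested genotype and tissue on unsaturated genes that were well above background throughout, with Benjamini-Hochberg adjustment over all of them. The fit was also run on simulated data with the same residual SD for every gene and the same genotype effect in both tissues. That run does not bear on effects that differ between limb and brain. Other calculations used Python 3.11.15. The deposited series table held the same intensity values within 0.0071 log2.

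Members and lists were chosen with earlier results of these data known. Named genes were all members and Rest, from each list up to 4 genes, largest difference first, that passed 2-fold and up to 2 bounds, and the 3 genes most like each member at least 2-fold higher in CKO limb. Cdk5r1 is also named within its list through the last of these. Probe positions are those of the files (mm9). Exon annotation of that build was not used here. Alternatives were quantile, median and normexp normalization, the series table, the mean of all probes, stricter and no filters, 1.5-fold and an intensity trend.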

Additional observations from a re-analysis of the deposited data

Results flagged for a closer look

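For 10 probes the CKO minus WT difference was above 0 in limb and below 0 in brain, where each tissue has 1 array per group. The differences between the tissues were not tested. For Dcx the limb values were 1.0, 0.93 and at least 0.56 at its 3 probes, against -0.09, -0.15 and -0.14 in brain. For Map2 they were 0.30 and 0.23 at the probes ranked 2 and 3 by signal, against -0.15 and -0.16. The second Dpysl5 probe was higher by at least 0.33 in limb and differed by -0.13 in brain. Dpysl3 differed by 0.07 in limb and by -0.07 in brain, both close to the technical SD of 0.0658 in limb and 0.0608 in brain. Dpysl2 differed by 0.21 and 0.17 in limb at its 2 probes and by -0.06 at both in brain, and the brightest Mapt probe by 0.06 and -0.07. The brain values of all 10 were within their software error. By the smaller technical SD, the second Dcx probe lay at 2.47 SDs in brain and the second Map2 probe at 2.52 SDs.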

How the results depend on the processing

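No paired analysis was possible because each group has 1 array and the labels give no replicate numbers, and no replicate could be left out. The count of members at least 2-fold higher in CKO limb was 2, and it was 1 under normexp background correction, 1 with the deposited series table, 1 with the percentile over all non-control spots (a setting added after seeing the data), 3 under quantile normalization, 3 under median centring and 4 at 1.5-fold. Crmp1 was counted under each of these. The direction of a member counted at 2-fold reversed under none of the settings run. The counts in brain (0 of 9), in WT brain against WT limb (9 of 9) and in CKO limb against WT brain (9 of 9 lower) were the same under all of them, apart from the loss of Map2 (8 of 8) where members are taken by array name alone. Of the pathway genes, 6 differed at least 2-fold in limb and 10 at least 1.5-fold, 8 higher and 2 lower. Under normexp background correction 4 differed at least 2-fold, 3 higher and 1 lower. The genotype test in limma called 0 genes, with 977 at an unadjusted p under 0.05, and without the filter on dim probes it called 4097, 74 higher and 4023 lower. The lowest scaled level called above background was itself lower in CKO, at -4.95 in WT and -5.76 in CKO limb, and -5.36 and -6.19 in brain. The part of this offset in the calls without the filter was not tested. The median limb difference of all genes lay between -0.03 and 0.00 under the settings run. Low signal limits Dpysl5 in limb, and the Map2 probes ranked 4 and 5 by signal, which were dark on both limb arrays. All 3 Mapt probes were well above background on both limb arrays. The brightest Mapt probe, at -1.6 in WT and -1.54 in CKO limb, lay below the brightest Map2 probe, at -1.26 and -0.81.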
